A study of Homo sapiens with 12 samples.

Results

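Transcripts of the replication-dependent and linker histone genes were measured in HEPM, a human cell line derived from mesenchyme of the embryonic palate. Cells had been transfected 6 h earlier with plasmids that express MSX1, a homeobox protein that regulates transcription in palate and tooth development. The members are all genes of the deposited table whose symbol is that of a numbered H1 linker histone or of a clustered H2A, H2B, H3 or H4 gene, 73 of the 63241 genes listed. By class they are 10 H1, 17 H2A, 18 H2B, 13 H3 and 15 H4 genes. Every group overexpressed MSX1 from a plasmid: the wild-type protein (WT), or a protein in which the same arginine was replaced by serine in R157S, by lysine in R157K, or by phenylalanine in R157F. Each plasmid had 3 libraries, 12 in all, from the same line at the same time. WT MSX1 is the reference throughout, and untransfected or empty-vector cells were not analysed here. PRMT1, an arginine methyltransferase, is named in the series title as the enzyme that methylates MSX1, and the comparisons address what differs when this residue is another one.

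Core histones H2A, H2B, H3 and H4 form the nucleosome, and H1 binds the linker DNA between nucleosomes. Most core histone genes lie in clusters, are transcribed in S phase under NPAT, and give short mRNAs without introns that end in a stem-loop instead of a poly(A) tail. SLBP, the stem-loop binding protein, holds that end through processing, export and decay. Some of these genes also give transcripts that read past the stem-loop to a downstream poly(A) site, and this form is known from cells outside S phase. H1-10 is a linker histone expressed independently of replication, and its mRNA carries a poly(A) tail.

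Per the labels' protocols, RNA was taken by poly(A) selection on oligo(dT) beads, so the values describe histone RNA that was retained by that selection. Of the 73 members, 55 lie on chromosome 6 and 13 on chromosome 1, and the others are scattered. A stem-loop (a 6-base stem that opens with GG and closes with CC, around a loop of 4 bases) was found in the GENCODE 29 transcripts of 30 members. These sequences are shown because they mark the end that the selection would miss; the capitals are the stem and the lower-case letters are the loop, on the gene's strand of GRCh38.
H2AC6 at chr6:26124669-26124684, plus strand: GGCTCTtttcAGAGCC
H2BC5 at chr6:26158587-26158602, plus strand: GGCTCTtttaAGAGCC
H4C5 at chr6:26205001-26205016, plus strand: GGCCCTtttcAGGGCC
H4C14 at chr1:149833032-149833047, plus strand: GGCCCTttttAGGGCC
The H4 stem differs from that of the H2A and H2B genes, and the loop of H2BC5 ends in another base than that of H2AC6. In 22 of the 30 members at least 1 annotated transcript with this stem-loop runs 100 bases or more past it. Of those 22, 20 reached 1 TPM (a level relative to the library total, per transcript length) in at least 3 libraries. Of the 8 members whose models with the stem-loop end within 100 bases of it, 6 reached that level. H2BC5, among the 8, also has a model without the stem-loop, and its locus extends to chr6:26171349. The models of the remaining 43 hold no such stem-loop, and many are coding sequence alone, so the letters say nothing of those genes' real ends. The annotation used by the authors is not given in the sources used here.

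In all, 44 of the 73 members reached 1 TPM in at least 3 of the 12 libraries and were tested. They are 4 H1, 12 H2A, 15 H2B, 4 H3 and 9 H4 genes. Of the 29 others, 7 were listed at 0 in every library (H1-7, H1-8, H2AC1, H2BC1, H4C13, H4C2 and H4C7) and 22 were above 0 somewhere. Apart from H2AC19, which reached 44.1 TPM in 1 library, none of those 22 passed 1.91 TPM. At the threshold, 7 members had exactly 3 libraries at 1 TPM (H2AC16, H2AC7, H2BC26, H2BC6, H3C3, H4C11 and H4C3), with highest values of 1.42 to 12.97 TPM, and 3 had 2 (H2AC19, H2BC3 and H3C13). Only 16 members were at 1 TPM or more in all 12 libraries. Of the 44, 10 had no WT library at 1 TPM and so were tested through the variants alone. For that reason the account below rests first on the 18 tested members whose mean over all 12 libraries was at least 5 TPM. They carried 95.4% of all histone TPM. No H3 gene is among the 18. Their mean includes the variant libraries, so this choice does not remove the problem. H4C12, H4C15 and H4C8 passed it with WT means of 1.72, 2.29 and 4.89 TPM. All of these are counted as higher with R157F below, and H4C15 also with R157K and R157S.

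Markers of mesenchyme were present, with 10 of 10 at 1 TPM or more in at least 3 libraries and summed levels of 14412 to 24365 TPM. Of the markers of other cell types, 0 of 5 immune, 3 of 8 epithelial, 2 of 5 endothelial, 1 of 5 neural and 2 of 5 muscle markers reached that level. Their sums were 0.26 to 1.11 TPM for immune, 18.3 to 38.8 for epithelial, 4.81 to 12.2 for endothelial, 112 to 262 for neural (nearly all TUBB3) and 3.15 to 6.87 for muscle, and CD3E, MYOD1 and MYOG were at 0. Ribosomal protein genes took 5.46% ± 0.86 of TPM for WT, 6.50% ± 0.14 in R157S cells, 12.4% ± 1.27 in R157K cells and 7.68% ± 0.19 in R157F cells (SD, n = 3), the same order of groups as for the H1, H2A and H4 sums below. WT replicate 2 stood apart from the other WT libraries, with the lowest ribosomal share (4.53%), the highest share of mitochondrially encoded genes (9.96%) and the lowest summed histone level. Whether these shares play a part in the histone results was not tested.

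Mean summed levels with R157K were 3.13 times those with WT for H2A genes, 3.15 times for H4, 1.72 times for H2B, 1.39 times for H1 and 1.12 times for H3. Single genes weigh heavily in some sums. Over all libraries 1 gene made up 83.4% of H1 TPM, H2AC18 46.04% of H2A and H2BC12 44.4% of H2B. H2BC12 went from a mean of 49.8 TPM with WT to 144.8 with R157K, beside 158 and 271 for the whole H2B sum. The median log2 change of the 7 H2B genes with a mean of at least 5 TPM was 0.16. The H2B ratio is therefore not a rise shared by the class. The summed TPM of the 17 H2A genes was 116, 79.5 and 140 in the WT libraries, 214, 164 and 180 in R157S cells, 356, 318 and 374 in R157K cells and 286, 296 and 305 in R157F cells. Every library of each variant lay above every WT library. The 15 H4 genes summed to 38.4, 20.8 and 24.4 TPM for WT, 51.9, 38.3 and 36.9 in R157S cells, 66.4, 102 and 95.1 in R157K cells and 68.5, 59.9 and 80.5 in R157F cells. R157S overlapped WT here and the other variants did not.

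The 18 H2B genes summed to 158 ± 29.1 TPM for WT, 209 ± 13.4 in R157S cells, 271 ± 16.7 in R157K cells and 300 ± 21.8 in R157F cells (SD, n = 3), without overlap between WT and any variant. The 10 H1 genes summed to 427, 311 and 461 TPM for WT, 442, 437 and 397 in R157S cells, 578, 533 and 562 in R157K cells and 540, 506 and 548 in R157F cells. R157S lay inside the WT range, while R157K and R157F lay above it. The 13 H3 genes summed to 6.98, 3.13 and 6.63 TPM for WT, 7.82, 6.50 and 5.06 in R157S cells, 5.89, 5.60 and 7.25 in R157K cells and 7.71, 11.4 and 7.90 in R157F cells. R157F lay above all WT libraries, at 1.61 times their mean, while R157S and R157K overlapped WT. Over all 73 members the ratio of mean summed TPM to WT was 1.24 for R157S, 1.81 for R157K and 1.72 for R157F, and each variant was above WT in 3 of 3 batches (the labels' word for the replicate number). In bulk RNA, fewer cells of a type and less RNA per cell cannot be told apart.

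**Figure D1:**
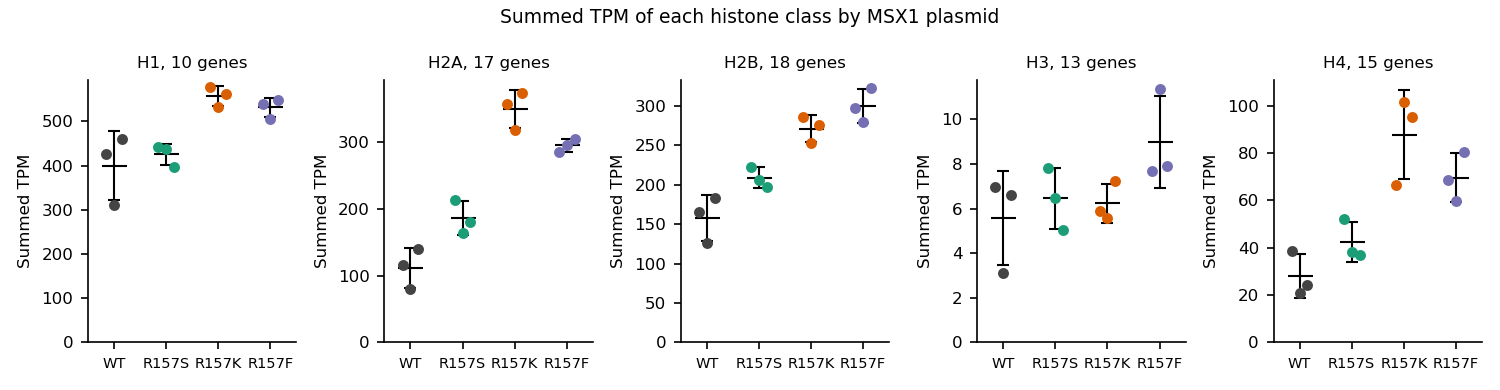
Summed TPM of the 5 histone classes by MSX1 plasmid; points are libraries, and the dash and bar are mean ± SD (n = 3). H2A and H4 sums with R157K and R157F lie above all WT libraries; the H3 sum does so with R157F (7.71 to 11.4 TPM) and overlaps WT with R157K.

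Across all 14718 tested genes the median log2 change against WT was -0.01 for R157S, -0.34 for R157K and -0.08 for R157F, and median-ratio scaling of the libraries moves these by 0.03, 0.34 and 0.09. For most single members named for R157K, the change relative to that median is given as well. It is not given for summed copies. Among the 18 members with a mean of at least 5 TPM, 12 were higher and 1 lower with R157K, beside 19.4% higher and 53.5% lower of all 10717 genes at that level. Over the 44 tested members 23 were higher and 1 lower, beside 17.3% and 46.2% of all tested genes. With R157F 16 of the 18 were higher (H4C12, a close copy of H4C11, included) and none lower, beside 28% and 40.4% of genes at that level (27 and 0 of the 44, beside 24.4% and 33.8%). With R157S 3 of the 18 were higher and none lower, beside 9.29% and 16.3% (3 and 0 of the 44, beside 7.6% and 12.8%). The limma model with a Benjamini-Hochberg adjusted p under 0.05 made these calls; for the 41 tested members that R157S left uncalled, this does not show that they did not differ. All 3 comparisons share the WT libraries. The median change of the 18 was 0.40, 1.03 and 1.04 for R157S, R157K and R157F, beside -0.02, -0.42 and -0.12 for all genes at that level.

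**Figure D2:**
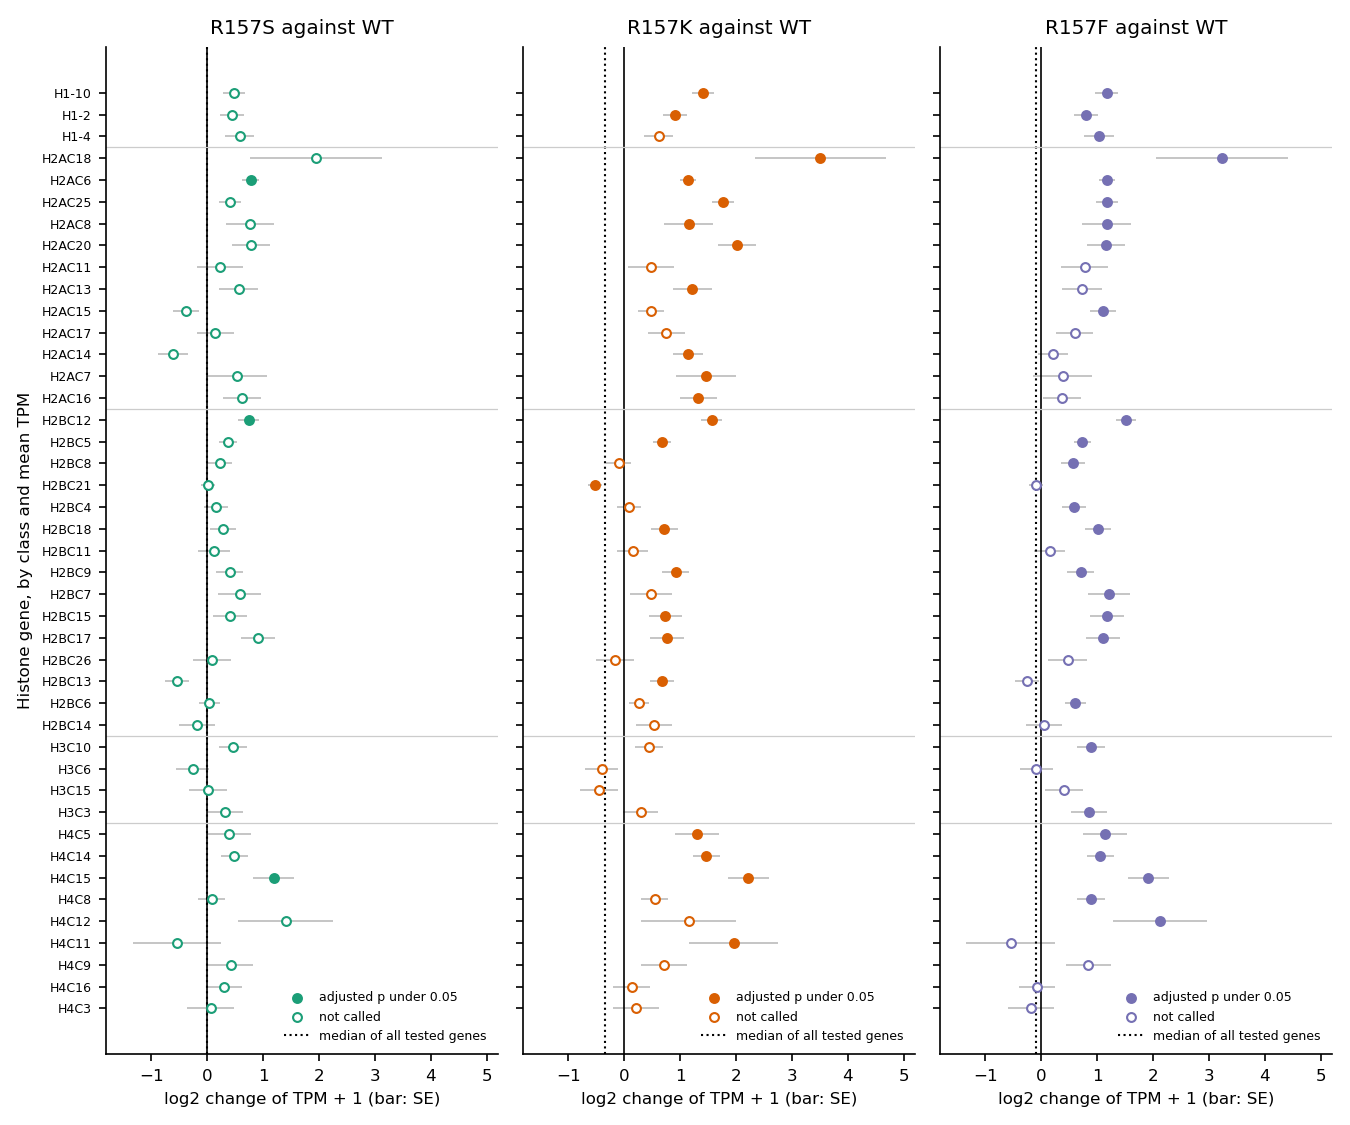
Log2 change of TPM + 1 against WT for 43 of the 44 tested histone genes, ordered by class and mean level; filled points passed an adjusted p of 0.05, bars are SE, and the dotted line is the median of all tested genes. With R157K 22 points are filled to the right of 0 and H2BC21 alone to the left, and with R157S 3 points are filled.

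Among H2A genes, H2AC6 (ENSG00000180573; chr6:26124145-26139116, plus strand) was at 42.8, 43.7 and 42.6 TPM for WT, 81.8, 64.7 and 78.5 in R157S cells, 94.9, 76.9 and 122 in R157K cells and 90.1, 101 and 104 in R157F cells. Every variant library was above every WT library. Its log2 change was 0.78 ± 0.15 (SE; adjusted p = 0.0151) with R157S, 1.14 ± 0.15 (3.03e-05; 1.48 relative to the median of all genes) for R157K and 1.18 ± 0.15 (0.000197) for R157F, and it stayed near these values without WT replicate 2 (0.79, 1.15 and 1.19).

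H2AC25, an H2A gene outside the main clusters (ENSG00000181218; chr1:228456979-228457873, minus strand), was at 13.4, 9.38 and 16.6 TPM for WT, 20.95, 15.4 and 16.2 in R157S cells, 53.4, 36.9 and 49.0 in R157K cells and 30.04, 33.6 and 27.6 in R157F cells. R157S overlapped WT, and the other variants did not. H2AC25 rose by 1.76 ± 0.20 with R157K (adjusted p = 9.94e-06; 2.10 relative to the median of all genes) and by 1.18 ± 0.20 with R157F (0.000555). It was also higher with R157K than with R157F, by 0.58 ± 0.20 (0.0414).

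H2AC18 and H2AC19 share most of their sequence, and in each library nearly all of their TPM fell on 1 of them or, in R157S replicate 2, on both. In WT replicate 2, H2AC18 was at 0.01 TPM and H2AC19 at 21.5. Their values were therefore added: the sum was 52.2, 21.5 and 72.1 TPM for WT, 94.99, 73.9 and 75.6 in R157S cells, 180, 179 and 176 in R157K cells and 146, 144 and 152 in R157F cells. All variant libraries were above all WT libraries. The summed pair rose by 2.02 ± 0.31 with R157K (adjusted p = 0.000101) and by 1.74 ± 0.31 with R157F (0.000719), and the value with R157S was 0.89 ± 0.31 (0.0572). Unsummed, H2AC18 gave 3.51 with R157K and 3.23 with R157F, and without WT replicate 2 these were 1.52 and 1.25.

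Among H2B genes, H2BC12 (ENSG00000197903; chr6:27146418-27146798, minus strand) was at 47.3, 34.8 and 67.3 TPM for WT, 90.6, 82.4 and 71.8 in R157S cells, 154, 135 and 146 in R157K cells and 135, 131 and 155 in R157F cells. No variant library fell into the WT range. H2BC12 rose by 0.75 ± 0.19 with R157S (adjusted p = 0.0245), 1.57 ± 0.19 with R157K (1.55e-05; 1.91 relative to the median) and 1.52 ± 0.19 with R157F (0.000177). Without WT replicate 2 the value for R157S was 0.52 (0.0557). H2BC12 was lower with R157S than with R157K by 0.82 ± 0.19 (0.00294) and than with R157F by 0.77 ± 0.19 (0.0355).

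H2BC5 rose less, from 25.1 ± 3.60 TPM with WT to 40.8 ± 5.61 with R157K and 42.6 ± 6.43 with R157F (SD, n = 3), a log2 change of 0.68 ± 0.16 (adjusted p = 0.00232; 1.02 relative to the median) and 0.74 ± 0.16 (0.00208). H2BC18 was at 5.31 ± 1.88 TPM with WT, 9.16 ± 1.34 with R157K and 11.5 ± 0.91 with R157F, and rose by 0.72 ± 0.23 (0.0166; 1.06 relative to the median) and 1.02 ± 0.23 (0.00299). H2BC11 was between 5.34 and 12.2 TPM in all libraries, with changes of 0.12 to 0.16 that were not called in any variant (adjusted p of 0.642 to 0.757). With R157K its change was 0.50 relative to the median.

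H2BC21 (ENSG00000184678; chr1:149884459-149886652, minus strand) was the only member called lower against WT. It was at 26.8, 28.0 and 24.0 TPM for WT, 28.8, 22.9 and 28.0 in R157S cells, 19.01, 15.5 and 20 in R157K cells and 24.3, 22.9 and 26.4 in R157F cells. The R157K libraries lay below all others. H2BC21 fell by 0.51 ± 0.13 on the log2 scale with R157K (adjusted p = 0.00341), which is -0.17 relative to the median of all genes. Median-ratio scaling ended that call (-0.12, 0.405), so relative to other genes a fall was not shown.

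Among H4 genes, H4C14 and H4C15 are close copies and were likewise added, as were H4C11 and H4C12. H4C14 and H4C15 together were at 15.5, 6.51 and 8.10 TPM for WT, 16.9, 17.6 and 15.7 in R157S cells, 28.3, 41.1 and 36.3 in R157K cells and 25.4, 27.5 and 27.3 in R157F cells. The variant libraries were above all WT libraries, by 0.77 ± 0.23 for R157S (adjusted p = 0.0389), 1.78 ± 0.23 for R157K (3.02e-05) and 1.41 ± 0.23 for R157F (0.000517). H4C11 and H4C12 together were at 3.58, 2.07 and 1.57 TPM for WT, 4.90, 5.05 and 5.09 in R157S cells, 16.4, 23.1 and 12.97 in R157K cells and 8.85, 9 and 8.94 in R157F cells. Here the groups did not overlap one another, and the changes against WT were 0.86 ± 0.22 (0.0247), 2.45 ± 0.22 (2.39e-06) and 1.59 ± 0.22 (0.000251). In every library but R157K replicate 1 the whole value fell on H4C11 or on H4C12. Neither is therefore read alone, although each stays in the counts of called members.

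H4C5 rose from 8.74 ± 2.66 TPM with WT to 24.0 ± 10.7 with R157K and 20.6 ± 6.90 with R157F (SD, n = 3), by 1.30 ± 0.39 (adjusted p = 0.0116; 1.64 relative to the median) and 1.14 ± 0.39 (0.0262). H4C8 was at 4.89 ± 1.33 TPM with WT and 10.2 ± 3.27 with R157F, a rise of 0.90 ± 0.25 (0.00871), and its value with R157K was 0.54 ± 0.25 (0.0736; 0.88 relative to the median). H4C8 was called for R157K after median-ratio scaling (0.91, 0.00768) and with the trends described below removed (0.80, 0.0178).

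Among linker histones, H1-10 (ENSG00000184897; chr3:129314771-129316277, minus strand) was at 30.3, 19.7 and 40.5 TPM for WT, 39.1, 46.2 and 37.9 in R157S cells, 90.5, 68.5 and 79.1 in R157K cells and 60.6, 69.8 and 69.8 in R157F cells. R157S overlapped WT, and the other variants lay above it. H1-10 rose by 1.41 ± 0.20 with R157K (adjusted p = 6.6e-05; 1.75 relative to the median) and 1.17 ± 0.20 with R157F (0.000662). H1-2, a replication-dependent linker histone, went from 15.9 ± 5.15 TPM with WT to 29.9 ± 3.77 with R157K and 27.7 ± 4.78 with R157F (SD, n = 3), by 0.91 ± 0.21 (0.00237; 1.25 relative to the median) and 0.80 ± 0.21 (0.00694).

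**Figure D3:**
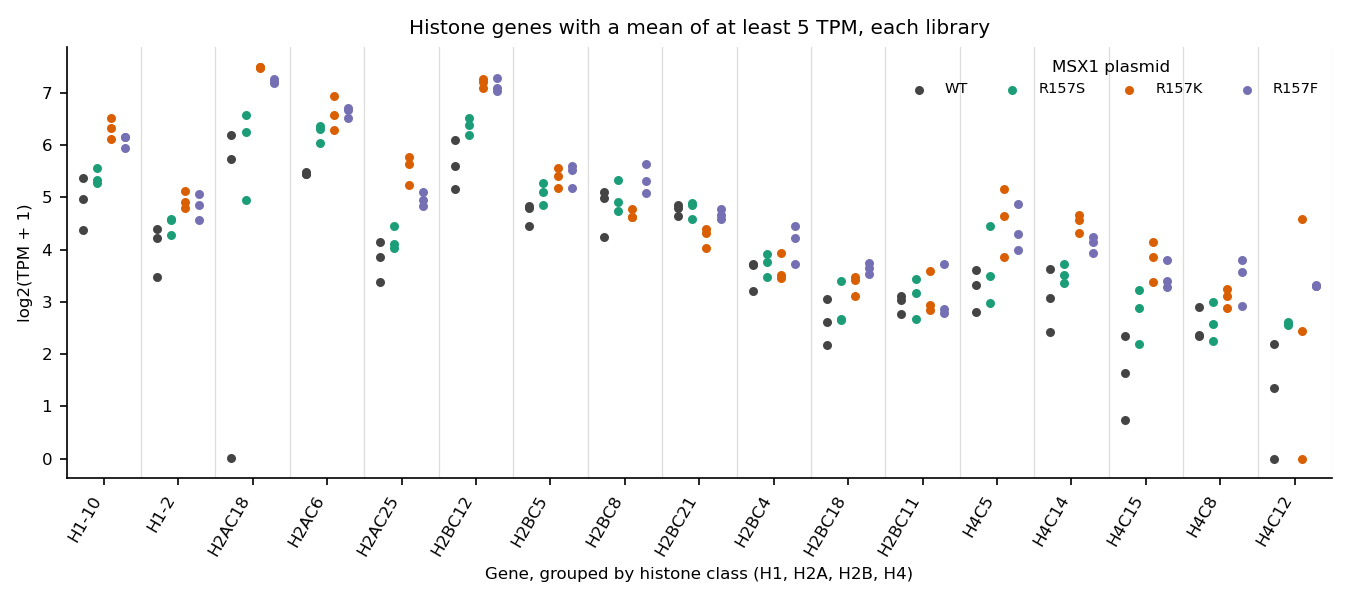
log2(TPM + 1) of 17 of the 18 tested histone genes with a mean of at least 5 TPM; each point is 1 library, coloured by MSX1 plasmid. The single low WT point of H2AC18 is WT replicate 2, at 0.01 TPM, where its copy H2AC19 was at 21.5 TPM, and the 2 points of H4C12 at 0 are libraries in which H4C11 took the value.

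Among the 26 tested members with a mean below 5 TPM, 11 were higher with R157K and 11 with R157F, none was lower in either, and none was called with R157S. Of all 4001 tested genes below 5 TPM, 11.9% were higher with R157K and 14.8% with R157F. Several of these members passed the filter only where they were high, so their counts support nothing. H2BC9 went from 1.60, 1.84 and 2.79 TPM with WT to 5.42, 6.23 and 3.14 with R157K and 3.04, 5.49 and 3.65 with R157F, without overlap. H2AC15 was at 0.69, 0.32 and 0.91 TPM with WT, 0, 0.29 and 0.52 with R157S, and 2.92, 1.66 and 3.06 with R157F. The H3 genes were all low: H3C10 was at 2.08, 0.71 and 1.16 TPM with WT and 2.40, 4.45 and 2.88 with R157F, a rise of 0.89 ± 0.25 (adjusted p = 0.00983). With R157K none of the 4 tested H3 genes was called.

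Between the variants, 1 of the 18 members with a mean of at least 5 TPM was higher and 6 lower in R157S than in R157K, beside 51.4% and 8.91% of genes at that level (1 and 11 of the 44, beside 42.2% and 7.9%). The median change of all genes was 0.33 here. H2AC25 (-1.35 ± 0.20, adjusted p = 0.000169), H2BC12, H1-10 (-0.93 ± 0.20, 0.00242) and both H4C14 and H4C15 (summed, -1.02 ± 0.23, 0.00313) are among the 6. The 5 others of the 11 were low genes (H2AC14, H2AC15, H2AC20, H2BC13 and H4C11). Of these, H2AC14, H2BC13 and H4C11 would not have passed the filter without their R157K libraries, so their calls support nothing. H4C11 and H4C12 summed gave -1.58 ± 0.22 (0.000115). The higher one is H2BC21, whose call ended under median-ratio scaling (0.16, 0.31). R157S against R157F gave 0 higher and 2 lower of the 18 (H2BC12 and H2AC25), beside 5.67% and 1.25% of genes at that level (0 and 3 of the 44, with H2AC15, beside 4.31% and 1.11%). R157K against R157F gave 1 higher (H2AC25) and 2 lower (H2BC8 and H2BC21) of the 18, beside 4.06% and 33.8%. Median-ratio scaling ended both lower calls (adjusted p = 0.358 and 0.575). Of the 44, 5 were higher and 2 lower, beside 3.3% and 26.4%, but H2AC14, H2AC16, H2BC13 and H4C11 would not have passed the filter without their R157K libraries, so these 4 calls support nothing. H4C11 and H4C12 summed were higher in R157K by 0.86 ± 0.22 (0.0121). In the test over the 4 plasmids together 26 of the 44 members were called, beside 70.8% of all tested genes.

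Many H2A and H2B genes stand head to head, with neighbouring start sites and a shared promoter between them. RefSeq (GRCh38.p14) promoter windows, 250 bases before to 50 after each start, were matched for 67 of the 73 members. Counted on both strands, CCAAT, the core of the NF-Y motif, was in 83.6% of member windows and in 35.7% of all 27305 windows, and in every H2A, H2B and H3 window but in 3 of 13 H4 windows. TATAAA was in 64.2% of member windows, against 12% of all. ATTTGCAT, the octamer bound by OCT1 at H2B genes, was in 14 of 18 H2B and 11 of 16 H2A windows, many of them shared, and in 1.80% of all windows. A match describes letters and is not a binding site. Sequences between the start sites are printed for 3 pairs chosen by outcome: the H2A gene was called higher with R157K and the H2B gene was not. H2AC7 and H2BC7, H2AC8 and H2BC8, and H2AC14 and H2BC14 had the same outcome. The reverse held for H2BC15 (adjusted p = 0.045) beside H2AC15 (0.085), and for H2BC17 (0.0411) beside H2AC17 (0.0634). H2BC12, called higher with R157K, also stands head to head with an H2A gene, H2AC12, which begins at chr6:27147129 on the plus strand. H2AC12 was at 0 to 0.93 TPM, was not tested and had no matched promoter window. That pair is therefore missing from the counts of pairs below. The sequences are on the plus strand, with the motifs in capitals in either orientation, followed by the window upstream of H2BC12 on its own strand.
H2BC4 and H2AC6, chr6:26123927-26124171: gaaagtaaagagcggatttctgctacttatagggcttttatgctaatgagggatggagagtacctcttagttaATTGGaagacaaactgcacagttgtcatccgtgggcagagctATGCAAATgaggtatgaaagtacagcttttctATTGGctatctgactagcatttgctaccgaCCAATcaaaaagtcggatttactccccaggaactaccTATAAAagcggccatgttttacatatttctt
H2BC21 and H2AC20, chr1:149886683-149886917: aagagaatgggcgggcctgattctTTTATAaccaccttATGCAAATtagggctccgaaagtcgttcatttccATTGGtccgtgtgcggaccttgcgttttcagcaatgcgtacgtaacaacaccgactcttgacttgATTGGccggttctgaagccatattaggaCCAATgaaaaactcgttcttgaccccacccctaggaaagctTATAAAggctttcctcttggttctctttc
H2AC25 and H2BC26, chr1:228457874-228458102: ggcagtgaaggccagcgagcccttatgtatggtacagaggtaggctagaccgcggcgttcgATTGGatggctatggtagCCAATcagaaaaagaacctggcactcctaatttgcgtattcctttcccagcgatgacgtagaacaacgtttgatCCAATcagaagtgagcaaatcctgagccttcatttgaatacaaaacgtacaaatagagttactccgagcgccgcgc
H2BC12 upstream, chr6:27146859-27147108, minus strand: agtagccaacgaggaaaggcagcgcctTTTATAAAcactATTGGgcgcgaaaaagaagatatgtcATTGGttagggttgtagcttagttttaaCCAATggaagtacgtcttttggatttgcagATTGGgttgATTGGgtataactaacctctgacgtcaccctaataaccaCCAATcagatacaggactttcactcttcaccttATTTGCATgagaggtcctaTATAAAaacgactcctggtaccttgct

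H2AC6, described above, rose in all variants, whereas its partner H2BC4 was at 12.2, 8.19 and 12.1 TPM for WT, 12.5, 14.1 and 10.1 in R157S cells, 14.3, 10.5 and 10.0 in R157K cells and 20.97, 12.1 and 17.7 in R157F cells. H2BC4 overlapped WT in every variant, and its change was 0.09 ± 0.21 with R157K (adjusted p = 0.72; 0.43 relative to the median) and 0.59 ± 0.21 with R157F (0.0335). H2AC20 was at 0.35, 0.33 and 0.92 TPM with WT and 4.53, 7.71 and 3.70 with R157K, a rise of 2.01 ± 0.34 (0.000235; 2.35 relative to the median), and its partner H2BC21 was not higher (-0.51, or -0.17 relative to the median). H2AC20 had no WT library at 1 TPM. It also shares 23.7% of its 75-mers with H2AC18, which was at 178 ± 2.16 TPM with R157K (SD, n = 3). Whether reads of H2AC18 add to the value of H2AC20 was not tested. H2BC26 was at 0.21 to 1.97 TPM in all libraries, and every variant overlapped WT, beside the rise of H2AC25.

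H2AC8 was at 3.53, 0.60 and 1.68 TPM with WT, 2.02, 8.02 and 6.88 with R157K, and 4.99, 5.48 and 4.76 with R157F, with R157K replicate 1 inside the WT range and below WT replicate 1 of the same batch. Its change with R157K was 1.16 ± 0.43 (adjusted p = 0.0338; 1.49 relative to the median), and this call was lost with the trends removed (0.65, 0.236). Its partner H2BC8 was at 33.1, 17.9 and 30.5 TPM with WT, 26.4, 23.7 and 23.6 with R157K, and 38.5, 33.0 and 48.8 with R157F. H2BC8 changed by -0.10 ± 0.22 with R157K (0.717; 0.30 after median-ratio scaling) and by 0.57 ± 0.22 with R157F (0.0419). Both partners were tested in 10 pairs. The mean log2 ratio of H2A to H2B was higher with R157K than with WT in 8 and lower in 2. The libraries of 4 pairs did not overlap, H2AC14 and H2BC14 among them. With R157S the ratio was higher in 6 and lower in 4, and with R157F in 7 and 3. H2AC7, H2AC14, H2BC13 and H2BC14 would not have passed the filter without their R157K libraries. No share over other pairs of genes was computed, so these counts support nothing. From WT to R157K, the ratio of H2AC20 to H2BC21 went from -4.17 ± 0.41 to -1.64 ± 0.65. That of H2AC25 to H2BC26 went from 3.07 ± 1.06 to 4.99 ± 0.25 (SD, n = 3). For H2AC6 and H2BC4 it went from 1.91 ± 0.32 to 2.96 ± 0.45, and for H2AC8 and H2BC8 from -3.35 ± 0.37 to -2.09 ± 0.95, with overlap. An exact two-sided permutation test of 3 against 3 cannot go below p = 0.1, and over the 30 comparisons of pairs with WT the adjusted p was 0.429 for each of these 4.

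**Figure D4:**
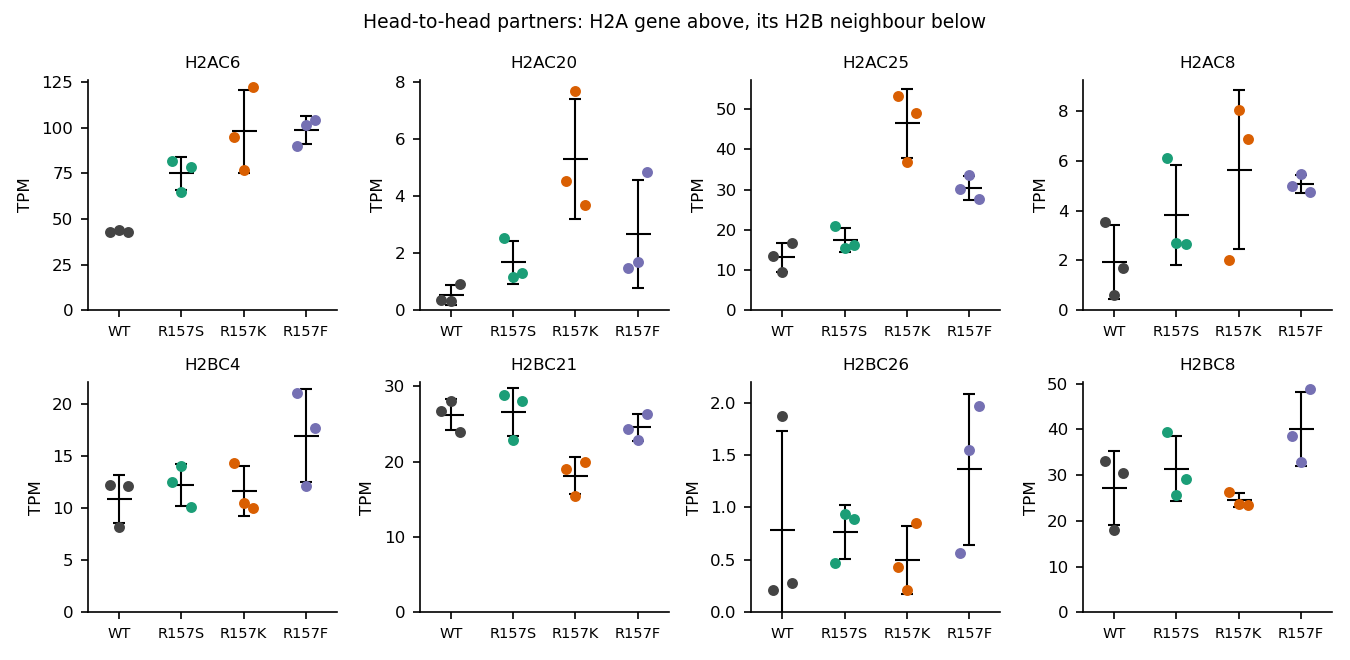
TPM of 4 H2A genes (upper row) and their head-to-head H2B neighbours (lower row) by MSX1 plasmid; points are libraries, and the dash and bar are mean ± SD (n = 3), drawn from 0 upward. H2AC6 is higher with every variant while H2BC4 overlaps WT, and H2BC21 is lowest with R157K, where H2AC20 is highest.

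Tested members have shorter and more GC-rich transcripts than other genes, with a median length of 772 bases and 55.8% GC, beside 2880 bases and 48.7% over 14222 tested genes with an annotated model. When the dependence on GC content and length was taken out of each library (trends removed), the 18 members had a median change of 0.26 for R157S, 0.75 for R157K and 0.77 for R157F. Of the 18, 1 was then called higher for R157S, 11 for R157K and 11 for R157F, and none was lower. Of all genes so corrected, 3.3% were higher and 2.74% lower with R157S, 19.9% and 22.5% with R157K, and 14% and 14.7% with R157F. H2AC6 was then at 1.71 with R157K (adjusted p = 1.6e-05), H2AC25 was at 1.15 and H2BC12 at 0.81 (0.000566). H1-2 was no longer called with either variant (0.165 and 0.205), nor was H1-10 with R157F (0.14, 0.218), and H1-10 was at 0.34 with R157K (0.00472). Many models of members are coding sequence alone, and that of H2BC12 has 381 bases. The corrected changes therefore rest on lengths and GC contents that may not be those of the RNA measured.

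Histone variants expressed outside replication (replacement histones) moved in both directions. Of 11 tested, 3 were higher and 3 lower with R157K, 3 and 1 with R157F, and 0 and 1 with R157S (all tested genes: 17.3% and 46.2%, 24.4% and 33.8%, 7.6% and 12.8%). With the trends removed these were 5 and 1, 4 and 1, and 1 and 0. H2AJ, an H2A variant gene, went from 34.9, 18.04 and 43.1 TPM with WT to 118, 119 and 115 with R157K and 78.6, 85.0 and 83.3 with R157F, a change of 1.92 ± 0.22 (adjusted p = 1.36e-05) and 1.42 ± 0.22 (0.00043), or 0.98 and 0.61 with the trends removed. H2AX, the variant phosphorylated at DNA breaks, went from 30.3 ± 11.3 TPM with WT to 69.99 ± 16.8 and 78.4 ± 2.08 (SD, n = 3), changes of 1.22 and 1.41, or 0.31 and 0.48 with the trends removed. H2AZ2, a gene for H2A.Z, was at 98.2 ± 6.98 TPM with WT, 70.7 ± 7.14 with R157K and 66.9 ± 1.03 with R157F. The median log2 change of all tested genes was -0.34 with R157K and -0.08 with R157F, and no change of H2AZ2 relative to it is given. H3-3B, a gene for H3.3, was at 1283 ± 95.1 TPM with WT, 704 ± 74.9 with R157K and 1423 ± 31.7 with R157F, far above all clustered H3 genes together, and its fall of 0.87 ± 0.09 with R157K was not called once the trends were removed (-0.10, 0.537).

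Of 32 genes of histone transcription and 3′ processing, all tested, 4 were higher and 21 lower with R157K (all tested genes: 17.3% and 46.2%), 7 and 15 with R157F (24.4% and 33.8%), and 2 and 8 with R157S (7.6% and 12.8%). With the trends removed 5 were higher and 14 lower with R157K, 4 and 8 with R157F, and 1 and 1 with R157S. NPAT, the coactivator of histone clusters, was at 21.01, 20.1 and 18.2 TPM for WT, 12.3, 16.2 and 11.6 in R157S cells, 5.21, 5.40 and 5.57 in R157K cells and 9.75, 8.81 and 10.4 in R157F cells. No variant library reached the WT range, and NPAT fell by 1.70 ± 0.13 with R157K (adjusted p = 1.24e-06; -1.36 relative to the median), by 0.96 ± 0.13 with R157F (0.000245) and by 0.54 ± 0.13 with R157S (0.0224). With the trends removed these were -0.57 (0.00803), -0.18 (0.394) and -0.07 (0.821). SLBP, named after its values were seen, was at 108 ± 15.1 TPM for WT, 78.7 ± 5.78 in R157S cells, 57.2 ± 2.77 in R157K cells and 67.5 ± 1.58 in R157F cells (SD, n = 3). It fell by 0.44 ± 0.11, 0.90 ± 0.11 (-0.56 relative to the median) and 0.66 ± 0.11, and it was also called with the trends removed (-0.52, -0.71 and -0.67).

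Of 40 DNA replication genes, 3 were higher and 26 lower with R157K, 7 and 21 with R157F, and 0 and 10 with R157S, beside the shares of all tested genes just given. CDC6, a replication licensing factor, went from 57.9 ± 2.03 TPM with WT to 25.5 ± 1.31 with R157K and 38.9 ± 3.19 with R157F, and RRM1, a subunit of ribonucleotide reductase, from 156.8 ± 40.7 to 56.0 ± 3.25 and 77.3 ± 6.75 (SD, n = 3). The median of the list was -0.69 with R157K, beside -0.34 for all genes. Of 31 tested histone chaperones, 2 were higher and 18 lower with R157K, 10 and 16 with R157F, and 0 and 11 with R157S. With the trends removed, 2 and 17 replication genes were higher and lower with R157K, 4 and 9 with R157F, and 0 and 1 with R157S. The chaperones then gave 5 and 9, 7 and 7, and 0 and 2, beside the corrected shares of all genes (19.9% and 22.5%, 14% and 14.7%, 3.3% and 2.74%).

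Of 27 listed RNAs that carry no poly(A) tail, 6 were tested. Of the 6, 5 were higher with R157K, 4 with R157F and 0 with R157S, beside 17.3%, 24.4% and 7.6% of all tested genes. None was lower, beside 46.2%, 33.8% and 12.8%. With the trends removed 3, 2 and 0 were higher, beside 19.9%, 14% and 3.3% of all genes so corrected. RN7SL1, the RNA of the signal recognition particle, was at 118, 34.3 and 84.9 TPM for WT, 81.6, 106 and 121 in R157S cells, 354, 429 and 414 in R157K cells and 212, 254 and 254 in R157F cells. R157S overlapped WT, the other variants did not, and RN7SL1 rose by 2.49 ± 0.33 with R157K (adjusted p = 3.45e-05) and 1.76 ± 0.33 with R157F (0.000969). RN7SK went from 12.5 ± 8.80 TPM to 51.8 ± 6.96 and 28.8 ± 1.89 (SD, n = 3). The part of poly(A) selection in the histone results was not tested. Of 14 histone genes listed as giving polyadenylated transcripts, 12 were tested, and 9 were higher and 1 lower with R157K, 10 and 0 with R157F, and 3 and 0 with R157S, beside the same shares of all tested genes (17.3% and 46.2%, 24.4% and 33.8%, 7.6% and 12.8%). With the trends removed the counts were 7 and 1, 6 and 0, and 1 and 0, beside 19.9% and 22.5%, 14% and 14.7%, and 3.3% and 2.74% of all genes so corrected. The 1 lower gene with R157K was then H3C15 (-1.05, adjusted p = 0.0174), at 0 to 1.66 TPM in all libraries. H2BC21, the lower gene before that correction, was no longer called (-0.105, 0.458).

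**Figure D5:**
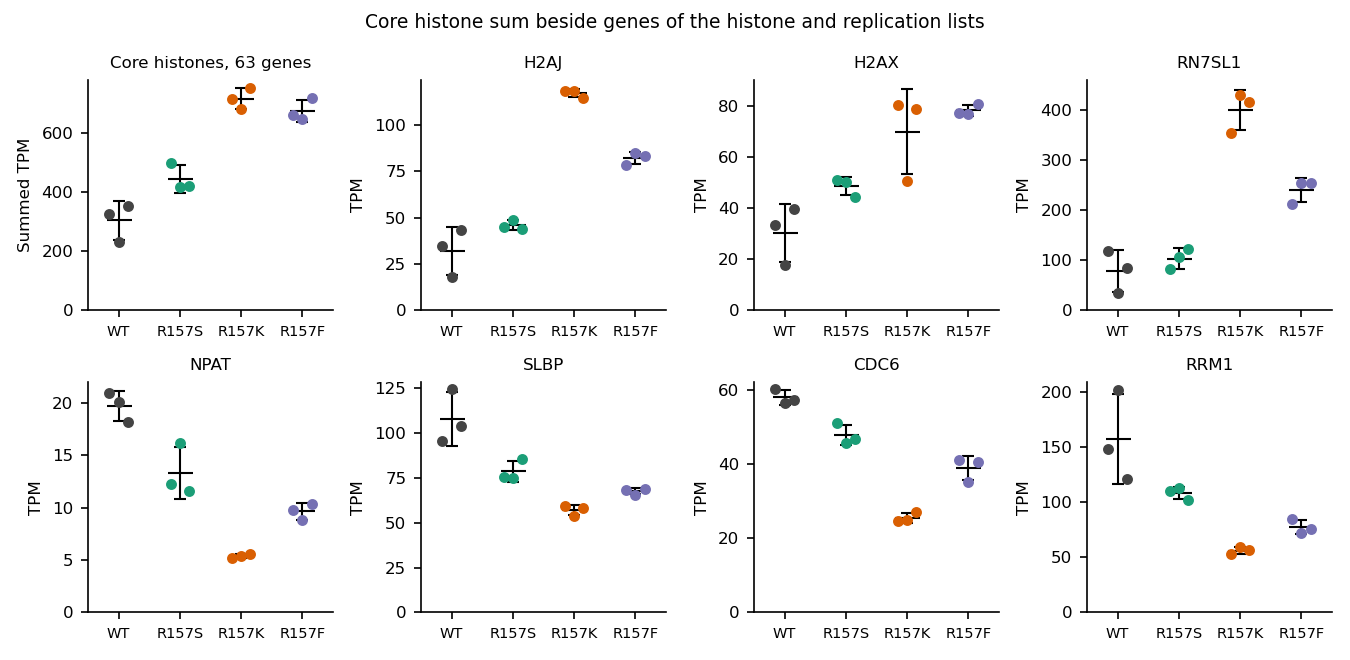
Summed TPM of the 63 core histone genes beside TPM of 7 genes of the lists described above, by MSX1 plasmid; points are libraries, and the dash and bar are mean ± SD (n = 3). The core histone sum, H2AJ, H2AX and RN7SL1 are higher with R157K and R157F than with WT, and NPAT, SLBP, CDC6 and RRM1 are lower.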

How the data were processed

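The authors deposited 1 table of TPM for 63241 genes (20601 without a symbol). The submitters' processing notes name RSEM, with no version. The build, annotation and strand setting are not given in the sources. TPM keep no depth, so no counting intervals were computed. The test planned for count data was not used. Log2(TPM + 1) was fitted with limma 3.58.1 in R 4.3.3 (trend, 8 residual degrees of freedom) over the 14718 genes that reached 1 TPM in 3 or more libraries, 1 coefficient per plasmid. Calls required p under 0.05 after Benjamini-Hochberg adjustment over all tested genes; changes of low genes are understated. The fit was tested on simulated data.

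No label states that cultures were separate, and p-values may therefore reflect technical spread between libraries only. The labels call the replicate number a batch, and so it pairs the libraries by label; correlations of same-numbered deviations averaged 0.0035 over 18 pairs of libraries and -0.0011 over 36 others.

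Members and lists were chosen with earlier results of these data known. Every tested member may be named, and from each list up to 4 called genes, taken by lowest adjusted p. The values of 1 member are not reported here, though it stays in all counts and sums. Transcript models came from GENCODE 29 and promoters from RefSeq (GRCh38.p14). Members sharing at least 70% of their 75-mers with each other count as close copies. Alternatives were a pseudocount of 0.1, other filters, median-ratio scaling, removed trends, a replicate block, models of 2 groups, a minimum change, and leaving out each library.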

Additional observations from a re-analysis of the deposited data

How the results depend on the processing

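Counts of called members are given for R157S, R157K and R157F against WT, then for R157S against each of R157K and R157F, for R157K against R157F, and for the 4-plasmid test; as reported they are 3, 24, 27, 12, 3, 7 and 26. The replicate block gave 3, 23, 25, 13, 3, 6 and 25, ending the call of H4C12 with R157F (adjusted p = 0.054) and adding H2AC6 for R157S against R157K (0.0486), and changed no other call among the 18 members above 5 TPM. Removing the GC content and length trends gave 3 (H2AC6 higher, H2AC14 and H2BC13 lower, where the reported 3 were all higher), 15, 17, 11, 3, 4 and 17, with the block 1, 16, 16, 11, 2, 4 and 20. Without the block, the 15 for R157K were 14 higher and 1 lower (H3C15). The 17 for R157F were 16 higher and 1 lower (H2BC13), where the reported 27 were all higher. Median-ratio scaling gave 3, 28, 26, 19, 3, 3 and 27. Without a filter the counts were 1, 17, 18, 9, 1, 2 and 15, and with a mean of at least 5 TPM 3, 13, 16, 8, 2, 3 and 15, as fewer members were tested. A pseudocount of 0.1 gave 4 for R157K against R157F. Models of 2 groups gave 0, 19, 24, 16, 12 and 9. A log2 change of at least 1 left 1, 15, 17, 6, 1 and 1. Leaving out each library in turn gave 0 to 6, 19 to 24, 17 to 26, 10 to 13, 0 to 2, 2 to 6 and 20 to 26; without R157S replicate 2 or 3 no member was called for R157S, and 6 were without WT replicate 3. For R157F, 17 were called without replicate 3 and 19 without WT replicate 2. Trends removed and WT replicate 2 left out together, chosen after seeing the data, left 2, 14 and 11 against WT and 15 in the 4-plasmid test. The causes were not tested. Over the 108 changes of the 18 members (6 comparisons), 1463 of 1662 values stayed called or stayed uncalled, 152 lost and 47 gained the call. In 0 did the sign reverse where either fit made a call. Changes uncalled in both fits count among the 1463 even where their sign differed. Depth is unknown from TPM.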
